A study of Mus musculus with 3 samples.

Results

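The mitochondrial genome of mouse T-helper 1 cells was examined gene by gene, as the 37 genes on chrM among the 50600 genes of the count tables. Every gene of that chromosome was included, whatever its counts. They comprised 9 genes on the minus strand, mt-Nd6 and 8 tRNA genes, and 28 genes on the plus strand, 12 mRNA, 2 rRNA and 14 tRNA genes. All 37 had the same coordinates in GENCODE vM21, which supplied names and types, as in the tables (mm10). All libraries came from C57BL/6NJ primary cells and formed 1 group, with 3 biological replicates that have a biosample record each and 1 donor record in common; sex and age are not given. A tag of 16 hr stands in the file headers without an explanation in the labels. There was no second condition, so strands and types were compared within each library, and the spread over the 3 libraries served as the error.

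Mammalian mitochondrial DNA is a small circle that is transcribed from both strands as long precursor RNAs. The tRNAs lie between the mRNAs and rRNAs and are cut out by dedicated enzymes, which frees the RNAs on either side, and most mRNAs then receive a poly(A) tail. The mRNAs encode core subunits of the respiratory chain and of ATP synthase, and the rRNAs and tRNAs serve the translation of these mRNAs inside the organelle. One strand carries nearly all of the mRNAs and both rRNAs. The other strand carries mt-Nd6 and a minority of the tRNAs. Activated T cells are known to enlarge and remodel their mitochondria.

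Total gene counts were 4764598, 2568928 and 2815439 in replicates 1, 2 and 3. The T cell markers Trac, Trbc2, Cd3e, Cd3d, Cd3g, Cd4 and Cd5 all reached 1 TPM (transcripts scaled for length to a fixed total) in every library, whereas the T-helper 1 regulator Tbx21 had 2, 10 and 2 counts and the cytokine gene Ifng had 1, 0 and 0. Fragments were counted with strand setting 1, which takes the first read to lie on the strand of the gene, per the file headers. The library kit is not given in the sources used here, and whether this setting matches the kit was not tested. If it does not, a value given here for a minus-strand gene counts RNA that runs on the plus strand at that place, and the reverse. Genes whose exons meet exons of the other strand held 56.1%, 60.3% and 71.6% of all counts in replicates 1, 2 and 3. The share of all genes that have such exons is not given here, so these shares compare libraries only. In 61, 60 and 63 of 69 nested pairs, a noncoding gene that lies within opposite coding exons exceeded its coding partner per kilobase. Over the 65 pairs with a ratio, the coding gene stood at a median of 3.52%, 3.04% and 1.64% of its noncoding partner per kilobase.

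The strands meet at only 3 places in the annotation. The longest of these shared stretches, 14 bases, lies at the ends of mt-Nd6 and mt-Nd5, which run towards each other. The sequences below, from the GENCODE vM21 transcripts, show that junction, each strand written 5′ to 3′ and the shared, complementary bases in capitals, and then the minus-strand tRNA genes of highest count beside mt-Tt, the plus-strand tRNA gene that abuts mt-Tp. In mt-Tq the capitals mark the 3 bases shared with mt-Ti. The stretches are chrM:13552-13611 (minus) for mt-Nd6, chrM:13506-13565 (plus) for mt-Nd5, chrM:15356-15422 (minus) for mt-Tp, chrM:14071-14139 (minus) for mt-Te, chrM:3772-3842 (minus) for mt-Tq and chrM:15289-15355 (plus) for mt-Tt.
mt-Nd6, last bases: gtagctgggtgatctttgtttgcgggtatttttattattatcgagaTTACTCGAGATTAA
mt-Nd5, last bases: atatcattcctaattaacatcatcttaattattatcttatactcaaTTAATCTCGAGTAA
mt-Tp: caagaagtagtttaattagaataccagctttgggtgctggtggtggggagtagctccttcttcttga
mt-Te: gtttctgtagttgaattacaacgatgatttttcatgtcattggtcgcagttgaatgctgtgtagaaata
mt-Tq: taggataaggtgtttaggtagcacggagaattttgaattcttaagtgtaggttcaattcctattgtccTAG
mt-Tt: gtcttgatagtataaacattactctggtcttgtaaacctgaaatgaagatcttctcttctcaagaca

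The 9 minus-strand genes had far more counts per kilobase than the 28 plus-strand genes in every library. The summed counts over summed length came to 18257, 14842 and 19699 counts per kilobase on the minus strand in replicates 1, 2 and 3, and to 1809, 1056 and 646 on the plus strand. The groups of values did not overlap, and the minus strand was 10.1, 14.1 and 30.5 times as high. The mean log2 ratio was 4.03 ± 0.82 (SD, n = 3), above 0 in 3 of 3 libraries, with p = 0.25 in the exact two-sided sign-flip permutation test over libraries, the smallest value that 3 libraries allow. In counts not divided by length, the minus strand held 19498, 15851 and 21038 counts and the plus strand 26006, 15183 and 9286, so that without length the minus strand was the lower of the strands in replicate 1. That ratio had a mean log2 of 0.28 ± 0.82 (SD, n = 3) and p = 0.75 in the same exact test. With the median over genes in place of sums, which gives each gene the same weight, the mean log2 ratio was 5.19. For these medians 1 count was added to each gene. Without it the median plus-strand gene had 21.4, 0 and 22.0 counts per kilobase in replicates 1, 2 and 3. The replicate 2 ratio of medians, 108.5, thus rests on the added count. Over genes of at least 200 bases, with sums, the mean log2 ratio was 4.83.

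**Figure D1:**
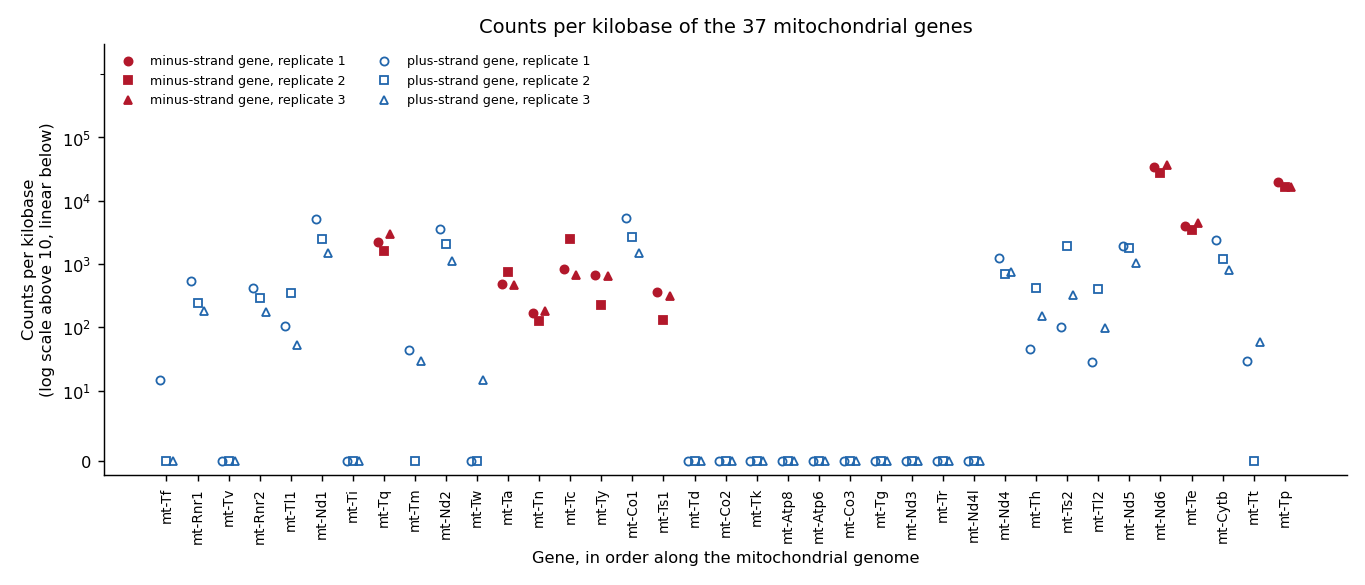
Counts per kilobase (vertical axis, logarithmic above 10 and linear below) of the 37 mitochondrial genes in order along chrM, with 1 point per library; filled red points are minus-strand genes and open blue points plus-strand genes. mt-Nd6 lies highest, between 27287 and 37102, and the 10 genes from mt-Td to mt-Nd4l lie at 0 in every library.

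Most of the minus-strand signal came from mt-Nd6, which encodes a membrane subunit of respiratory complex I and is the single mRNA gene of its strand (ENSMUSG00000064368.1, 13552 to 14070 on chrM). It had 17591, 14162 and 19256 counts in replicates 1, 2 and 3, which is 33894, 27287 and 37102 counts per kilobase. It held 38.7%, 45.6% and 63.5% of all mitochondrial counts. By counts per kilobase it ranked 2, 1 and 1 among the 50600 genes in replicates 1, 2 and 3. The limit stated for strand holds for these values. If the strand setting does not match the kit, they count RNA that runs on the plus strand at this place. The 12 plus-strand mRNA genes together had 2279, 1314 and 807 counts per kilobase, and mt-Nd6 was 14.9, 20.8 and 46.0 times as high. The log2 ratio averaged 4.60 ± 0.84 (SD, n = 3) and was above 0 in 3 of 3 libraries (exact sign-flip p = 0.25). Without division by length its mean was 0.21, with replicates 1 and 2 below 0. Against the median plus-strand mRNA gene, with 1 count added to each gene, it was 6.20.

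The genes on either side of mt-Nd6 showed how sharply the level changed with the strand of the gene, under the strand setting used. Its left neighbour mt-Nd5, a complex I subunit gene on the plus strand (11742 to 13565), had 1934, 1820 and 1027 counts per kilobase. Thus mt-Nd6 was 17.5, 15.0 and 36.1 times as high as mt-Nd5, although their ends share 14 bases. mt-Cytb, the cytochrome b gene of complex III on the plus strand (14145 to 15288), lies beyond mt-Te and had 2382, 1213 and 818 counts per kilobase. mt-Nd6 was 14.2, 22.5 and 45.4 times as high as mt-Cytb.

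The minus-strand tRNA genes covered a wide range. mt-Tp, the proline tRNA gene next to the control region, had 1306, 1088 and 1109 counts, which is 19493, 16239 and 16552 counts per kilobase. mt-Te, the glutamate tRNA gene that directly follows mt-Nd6 on chrM with no base between them, had 271, 236 and 309 counts. These genes stood above the other minus-strand tRNA genes in all 3 libraries. mt-Tq, the glutamine tRNA gene at 3772 to 3842, had 159, 114 and 209 counts. mt-Tc, the cysteine tRNA gene at 5192 to 5257, had 55, 166 and 45, and in replicate 2 it exceeded 11 of the 12 plus-strand mRNA genes per kilobase. The remaining members of the cluster around it were low. mt-Ta, for alanine at 5018 to 5086, had 34, 52 and 32 counts, mt-Ty, for tyrosine at 5260 to 5326, had 45, 15 and 43, and mt-Tn, for asparagine at 5089 to 5159, had 12, 9 and 13. mt-Ts1, a serine tRNA gene at 6870 to 6938, had 25, 9 and 22 counts.

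The order of the 9 minus-strand genes by counts per kilobase was the same in replicates 1 and 3: mt-Nd6, mt-Tp, mt-Te, mt-Tq, mt-Tc, mt-Ty, mt-Ta, mt-Ts1 and mt-Tn. In replicate 2, mt-Tc stood above mt-Tq and mt-Ta above mt-Ty. mt-Nd6 and mt-Tp exceeded all 12 plus-strand mRNA genes in every library. mt-Te exceeded 10, 12 and 12 of them, and mt-Tq 8, 8 and 12. mt-Tn, mt-Ty and mt-Ts1 exceeded only the 6 plus-strand mRNA genes that had no counts. Without mt-Nd6 the mean log2 ratio of minus to plus strand was 1.60 ± 0.70 (SD, n = 3), still above 0 in 3 of 3 libraries (exact sign-flip p = 0.25). That remainder rests largely on mt-Tp, which held 1306, 1088 and 1109 of its 1907, 1689 and 1782 counts in replicates 1, 2 and 3. The ratio without both genes was not computed, so an excess over the rest of the strand is not shown.

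Within the tRNA genes, which have similar lengths, the 8 minus-strand genes had 1907, 1689 and 1782 counts in replicates 1, 2 and 3, against 25, 197 and 47 for the 14 plus-strand genes. The minus-strand genes were 132, 14.9 and 65.8 times as high per kilobase. The log2 ratio averaged 5.66 ± 1.61 (SD, n = 3) and was above 0 in 3 of 3 libraries (exact sign-flip p = 0.25). Its mean was 6.54 without replicate 2, 4.97 without replicate 1 and 4.85 without the 6 genes at 0.

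Most counts on plus-strand tRNA genes fell on 4 of them. mt-Ts2, a serine tRNA gene, had 6, 114 and 19 counts, mt-Th, for histidine, 3, 28 and 10, mt-Tl2, a leucine tRNA gene, 2, 29 and 7, and mt-Tl1, the other leucine tRNA gene, 8, 26 and 4. These 4 held 256 of the 269 counts of the 14 genes, and replicate 2 was the highest library for each of them. The genes mt-Th, mt-Ts2 and mt-Tl2 lie side by side between mt-Nd4 and mt-Nd5. The other 10 genes, among them mt-Tf (1, 0 and 0), mt-Tm (3, 0 and 2), mt-Tw (0, 0 and 1) and mt-Tt (2, 0 and 4), had at most 4 counts in any library, and 6 of them had 0 in all.

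The strands also differed in how their tRNA genes are spaced. All 14 plus-strand tRNA genes have another plus-strand gene within 3 bases, 8 of them on both sides. Of the 8 minus-strand tRNA genes, mt-Tq, mt-Ts1 and mt-Tp have no minus-strand gene that near, and the other 5 have 1 on a single side. The recorded counting command has no option to count a fragment that overlaps several genes of its strand. The part of this spacing in the tRNA counts was not tested. A fragment is also counted whole for a gene that it only touches, so values per kilobase of genes under 100 bases are not on the same footing as those of long genes.

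**Figure D2:**
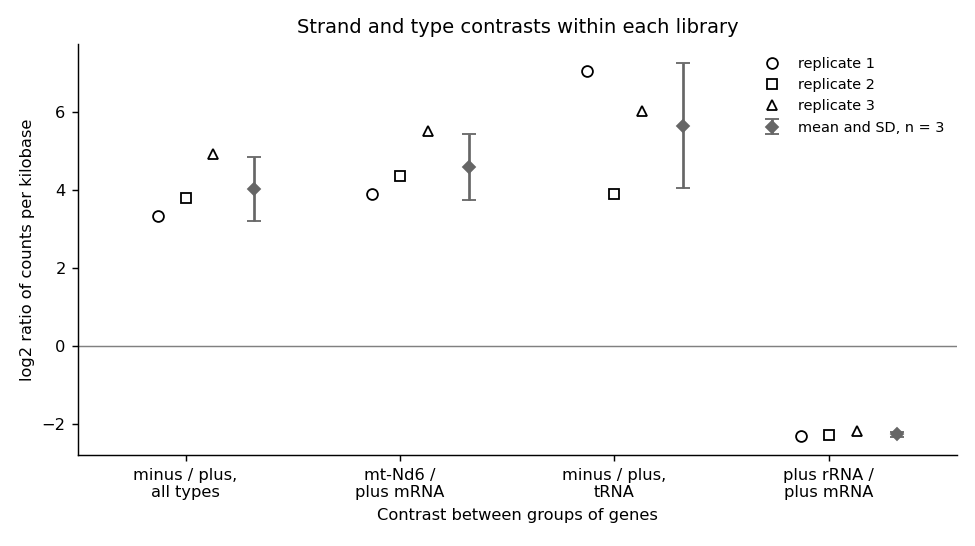
Log2 ratio of counts per kilobase between groups of mitochondrial genes (vertical axis) for the 4 contrasts, with open points for the 3 libraries and a grey diamond with a bar for the mean and SD (n = 3). The 3 contrasts of minus over plus strand lie above 0 in every library, between 3.34 and 7.05, and the contrast of rRNA over mRNA on the plus strand lies near -2.25.

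On the plus strand, 6 of the 12 mRNA genes had counts. mt-Co1, which encodes the catalytic subunit of cytochrome c oxidase (ENSMUSG00000064351.1, 5328 to 6872), had 8179, 4091 and 2341 counts, or 5294, 2648 and 1515 per kilobase. mt-Nd1 (2751 to 3707) and mt-Nd2 (3914 to 4951), complex I subunit genes, followed in all 3 libraries. mt-Nd1 had 5213, 2479 and 1476 counts per kilobase and mt-Nd2 had 3527, 2071 and 1133. mt-Nd4, also of complex I (10167 to 11544), was the lowest of the 6 with 1721, 977 and 1047 counts, or 1249, 709 and 760 per kilobase. mt-Nd5 and mt-Cytb lay between, with mt-Cytb the higher of these in replicate 1 and mt-Nd5 in replicates 2 and 3.

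Scaled to total gene counts, the means were 893 ± 310 RPKM (counts per kilobase and per 1000000 gene counts) for mt-Co1, 861 ± 299 for mt-Nd1, 650 ± 217 for mt-Nd2, 493 ± 188 for mt-Nd5, 421 ± 114 for mt-Cytb and 269 ± 6.95 for mt-Nd4 (SD, n = 3). Each mean differed from the next by less than the SD of the higher one, except that mt-Cytb stood above mt-Nd4 by more than its SD. These SDs are taken between libraries and do not measure the order within a library. In all 3 libraries mt-Co1, mt-Nd1 and mt-Nd2 came first, in that order, and mt-Nd4 came last. mt-Nd6, on the same scale, had 10305 ± 3045 RPKM.

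The rRNA genes were low. mt-Rnr1, the small subunit rRNA gene (70 to 1024), had 518, 230 and 174 counts, and mt-Rnr2, the large subunit rRNA gene (1094 to 2675), had 660, 459 and 278. Per kilobase that was 542, 241 and 182 for mt-Rnr1 against 417, 290 and 176 for mt-Rnr2, and neither gene was the higher in all 3 libraries. Together the rRNA genes reached 464, 272 and 178 counts per kilobase, against 2279, 1314 and 807 for the plus-strand mRNA genes. The log2 ratio averaged -2.25 ± 0.06 (SD, n = 3) and was below 0 in 3 of 3 libraries (exact sign-flip p = 0.25). With medians over genes, and 1 count added to each gene, its mean was -0.63, where 6 of the 12 mRNA genes are at 0. Without length it was -4.35. This contrast between types had the smallest spread between libraries of the 4. Total RNA is the molecule in the labels, but the name of the cited library protocol speaks of poly(A) RNA. The part of poly(A) selection in the rRNA level was not tested.

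Of the 37 genes, 12 had 0 counts in all 3 libraries, all of them on the plus strand. Among all genes, 64% had 0 counts in all 3 libraries, so the share of zeros over the 37 was not above that background. Of the mRNA genes, 6 of the 12 on the plus strand were at 0 and mt-Nd6 was not, beside 41.4% of all protein-coding genes. The place of the 12 zeros was uneven. An unbroken run of 10 genes, from mt-Td to mt-Nd4l (6942 to 10173), had no counts, with mt-Ts1 before it and mt-Nd4 after it. The run holds 6 mRNA genes: mt-Co2 and mt-Co3 of cytochrome c oxidase, mt-Atp8 and mt-Atp6 of ATP synthase, and mt-Nd3 and mt-Nd4l of complex I. The other 4 are the tRNA genes mt-Td, mt-Tk, mt-Tg and mt-Tr. A count of 0 allows up to 3 counts per library by counting error alone, or up to 4.39 counts per kilobase for mt-Co2, whereas the lowest of the other plus-strand mRNA values was 709. The 2 zeros outside the run were the tRNA genes mt-Tv and mt-Ti. At the other end, 15 of the 37 genes had at least 10 counts in every library, 40.5% of them, against 18.9% of all genes.

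The run lies, by position, inside a stretch of the mitochondrial genome with near-identical copies of 7 genes on nuclear chromosome 1. Of the 37 genes, 9 matched a nuclear transcript over at least 200 bases at 95% identity or more. The tRNA genes are shorter than 200 bases, so none of them could pass this cutoff. Copies of at least 99% identity existed for 7 genes and all lie on the minus strand of chromosome 1, between 24611535 and 24616188 (mm10). They are the unprocessed pseudogenes Gm29216 for the last 483 bases of mt-Co1, Gm28661 for mt-Co2, Gm10925 for mt-Atp6, Gm28437 for mt-Co3, Gm28438 for mt-Nd3, Gm10222 for mt-Nd4l and Gm28439 for the first 876 bases of mt-Nd4. Their order and spacing match those of the mitochondrial genes to within 1 base, and 5 of the 7 are identical over the whole aligned length. In mitochondrial coordinates the copied stretch runs from 6390 to 11042. By position it covers all 10 genes of the run, mt-Ts1, 31.3% of mt-Co1 and 63.6% of mt-Nd4. No nuclear transcript matched mt-Td, mt-Tk, mt-Tg, mt-Tr, mt-Atp8 or mt-Ts1. Their place in the copied stretch rests on the spacing of the 7 copies and was not aligned directly. mt-Ts1, on the minus strand, lay wholly inside the stretch by position and had counts. mt-Nd6 has no copy at 95% identity, and its closest match, Gm11408, is 93.6% identical and had 0 counts in every library.

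The following sequences show how near the copies are, with the base that differs in capitals. mt-Nd3 and Gm28438 differ at 1 position of 345 (T3C, counted from the first base of mt-Nd3, mitochondrial base first), and mt-Co1 and Gm29216 at 1 of 483 (A1066T, counted from the first base of mt-Co1). The first bases of mt-Co2, identical in Gm28661, are shown as an example of a gene of the run. The stretches are chrM:9459-9519, chr1:24613059-24613119, chrM:6390-6450, chr1:24616128-24616188 and chrM:7013-7072, with the copies on the minus strand.
mt-Nd3: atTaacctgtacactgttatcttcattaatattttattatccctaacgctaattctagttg
Gm28438: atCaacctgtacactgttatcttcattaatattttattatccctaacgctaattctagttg
mt-Co1: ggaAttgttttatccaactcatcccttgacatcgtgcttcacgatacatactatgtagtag
Gm29216: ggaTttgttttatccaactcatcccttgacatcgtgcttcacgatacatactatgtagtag
mt-Co2 and Gm28661: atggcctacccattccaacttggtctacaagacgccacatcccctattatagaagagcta

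The copies themselves had few or no counts, with 1 exception. Gm10925 and Gm28439 had 0 counts in every library, and Gm28661, Gm28437 and Gm29216 had 1 count each over the 3 libraries. Gm10222 had 1, 27 and 0 counts. mt-Nd3 had 0 counts in every library, and its copy Gm28438 had 38, 243 and 39. The copies of at least 99% identity summed to 40, 270 and 41 counts in replicates 1, 2 and 3, so neither the genes of the run nor their copies held counts near the 2341 to 8179 of mt-Co1. The recorded counting command has no option to count fragments that align to several places. The part of these copies in the zeros was not tested. The GENCODE sequences stand for strain C57BL/6J and the cells were C57BL/6NJ, and which base the mitochondrial DNA of the cells carries at the position in mt-Nd3 was not tested.

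**Figure D3:**
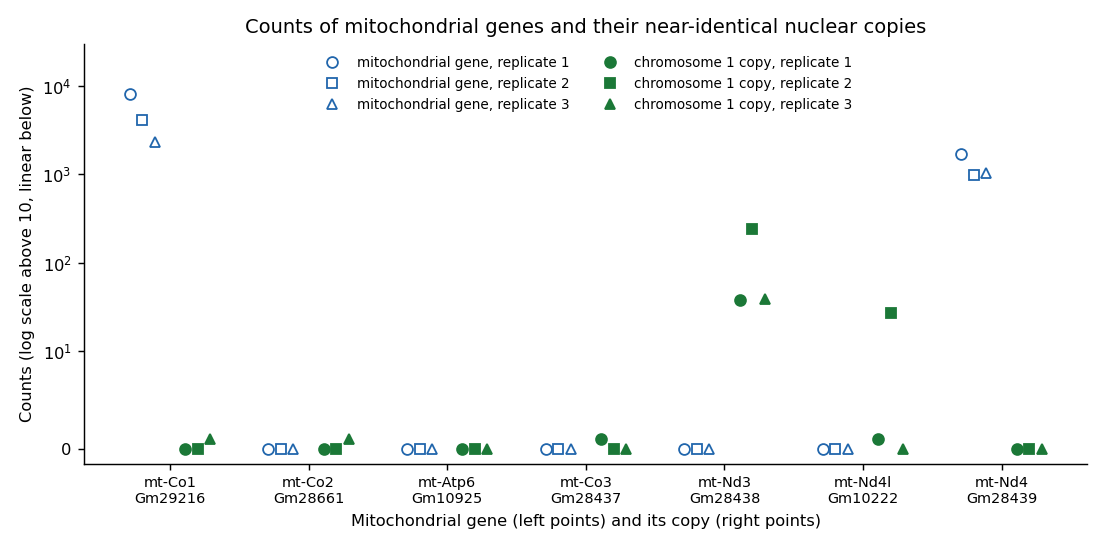
Counts (vertical axis, logarithmic above 10 and linear below) of 7 mitochondrial genes (open blue points, left) and of their copies on chromosome 1 (filled green points, right), with 1 point per library. The 5 mitochondrial genes in the middle lie at 0, and among the copies Gm28438 lies highest, at 38 to 243 counts.

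The files give counts for whole genes, so where fragments fell within mt-Co1 and mt-Nd4, at the edges of the copied stretch, is not known. Levels were also computed under an assumption made after the data were seen, that every fragment of these genes lay outside the stretch, by dividing the whole-gene count by the bases outside it. Under that assumption mt-Nd4 would have 3428, 1946 and 2086 counts per kilobase, against 1249, 709 and 760 over its whole length, and mt-Co1 would have 7702, 3852 and 2204. The place of mt-Nd4 as the lowest of the 6 thus rests on the length used, since it would stand above mt-Cytb and mt-Nd5 in all 3 libraries under the assumption. Genes wholly inside the stretch have no bases outside it and left the sums, among them the 6 plus-strand mRNA genes at 0. The ratio of mt-Nd6 to the remaining plus-strand mRNA genes would then have a mean log2 of 3.86 ± 0.84 (SD, n = 3; exact sign-flip p = 0.25). The ratio of rRNA to mRNA on the plus strand would have a mean of -2.99 ± 0.06 (exact sign-flip p = 0.25). Leaving out the genes at 0 alone, with whole lengths, gave means of 4.13 and -2.715.

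The 37 genes held 0.955%, 1.21% and 1.08% of all gene counts in replicates 1, 2 and 3, which is 1.08% ± 0.13 (SD, n = 3). In bulk samples, fewer cells of a type and less RNA per cell cannot be told apart. The division of this sum between strands differed between libraries. Minus-strand genes held 42.8% of mitochondrial counts in replicate 1 (exact 95% binomial interval 42.4% to 43.3%), 51.1% in replicate 2 (50.5% to 51.6%) and 69.4% in replicate 3 (68.9% to 69.9%). The intervals cover counting error only and do not overlap. Minus-strand genes had 4092, 6170 and 7472 counts per 1000000 gene counts (CPM) in the 3 libraries, and plus-strand genes had 5458, 5910 and 3298. Replicate 3 was the highest library for the minus strand and the lowest for the plus strand. The minus-strand sum was mostly mt-Nd6, with 3692, 5513 and 6839 CPM. The 8 minus-strand tRNA genes together had 400.2, 657.5 and 632.9 CPM, highest in replicate 2. With edgeR TMM scaling the minus strand had 3709, 5793 and 8783 and the plus strand 4947, 5549 and 3877, so replicate 3 again stood highest on the minus strand and lowest on the plus strand. Replicate 3 was also the library with the largest share of all counts in genes with opposite-strand exons (71.6%) and the smallest nested coding ratio (1.64%). The 7 T cell markers, summed, had 1575, 1199 and 729 TPM, and 7 of 7 were lowest in replicate 3. A low place in that library was common. Of all 9580 genes with at least 10 counts in every library, 69.0% stood below their own mean log2 CPM there. That is another unit and a looser mark than lowest in TPM, the mark used for the markers. The share of all genes that were lowest there in TPM is not given here. The part of the opposite-strand share, the nested ratio and the marker levels in the strand shares was not tested.

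**Figure D4:**
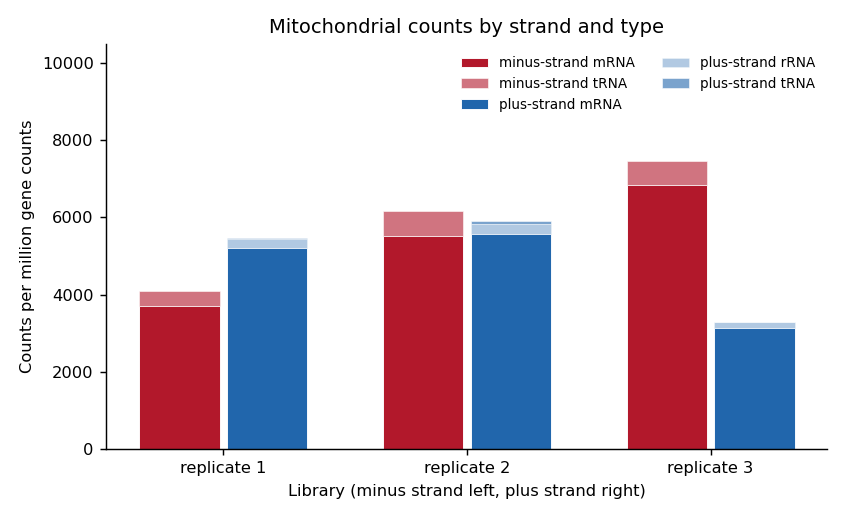
CPM (vertical axis, from 0) of minus-strand (red, left) and plus-strand (blue, right) mitochondrial genes in each library, stacked by type. The minus-strand bar is the lower in replicate 1 (4092 against 5458) and the higher in replicate 3 (7472 against 3298).

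Gene by gene, most minus-strand and most plus-strand genes lay on opposite sides of their means in replicates 1 and 3 but not in replicate 2. In CPM, the side of the plus-strand genes was that of most genes in each library. Deviations are taken from each gene's own mean, so the patterns of the libraries are not independent. Among the genes with at least 10 counts in every library, 5 of 7 minus-strand genes stood above their own mean log2 CPM in replicate 3, all but mt-Ta and mt-Tc, whereas 7 of 8 plus-strand genes stood below it, all but mt-Nd4. Of all 9580 genes at that count, 69.0% stood below their own mean in replicate 3, with a median deviation of -0.28, so a low place there was common. The median deviation in replicate 3 was 0.40 for the 7 minus-strand genes and -0.47 for the 8 plus-strand genes. In replicate 1, 6 of the 7 minus-strand genes stood below their mean and 6 of the 8 plus-strand genes above it, beside 67.7% of all genes above it. In replicate 2, 5 of the 7 minus-strand genes and 8 of the 8 plus-strand genes stood above their mean, beside 59.1% of all genes. With TMM scaling, applied after the data were seen, the median deviation of all genes in replicate 3 was -0.04, and 6 of 7 minus-strand genes stood above and 7 of 8 plus-strand genes below their mean there. mt-Nd4 varied least, with an SD of log2 CPM of 0.04 (262, 276 and 270 RPKM), while mt-Tc varied most, with an SD of 1.32. The median SD was 0.58 over the 7 minus-strand genes and 0.47 over the 8 plus-strand genes, beside 0.45 over all 9580 genes at that count. mt-Te kept a nearly fixed ratio to its neighbour mt-Nd6, at 11.6%, 12.5% and 12.1% of its counts per kilobase. mt-Tp, farther away on the same strand, stood at 57.5%, 59.5% and 44.6% of mt-Nd6.

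**Figure D5:**
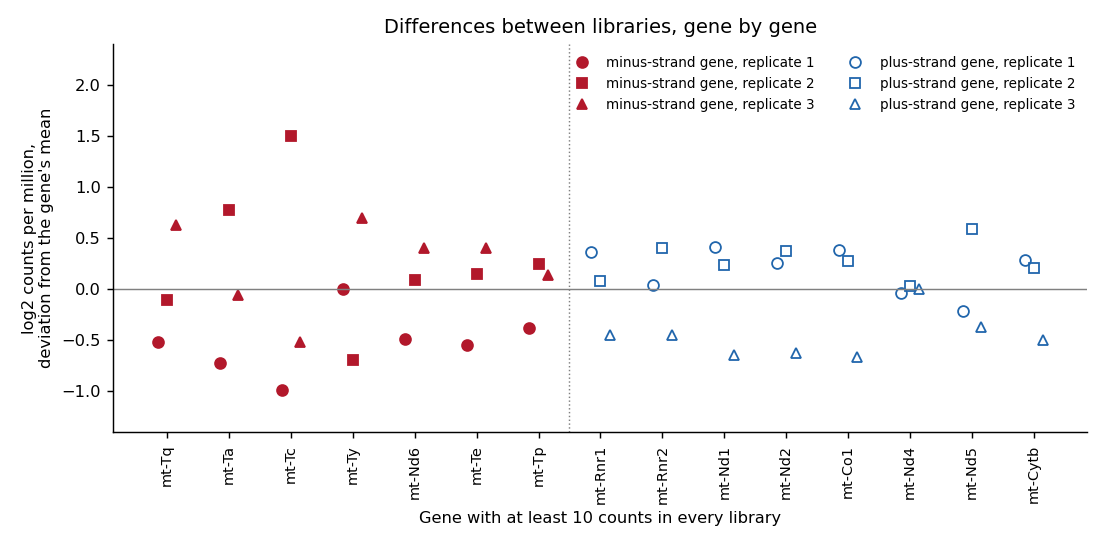
Deviation of each gene's log2 CPM from its own mean over the 3 libraries (vertical axis) for the 7 minus-strand (filled red, left) and 8 plus-strand genes (open blue, right) with at least 10 counts in every library. In replicate 3 (triangles) plus-strand genes lie at or below 0 apart from mt-Nd4 at 0.003, and 5 of 7 minus-strand genes lie above 0.

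Nuclear genes that maintain and express the mitochondrial genome were mostly detected. Of 57 such genes listed for their known roles, 55 were found and 50 reached 1 TPM in all 3 libraries, against 39.8% of all protein-coding genes. Of the 55, 25 have opposite-strand exons, and of the 30 without, 27 reached 1 TPM. All 9 genes of RNA polyadenylation, stability and turnover reached it, led by Endog, a mitochondrial nuclease (861 TPM ± 142; SD, n = 3), and Slirp, an RNA-binding partner of Lrpprc that stabilizes mitochondrial mRNAs (728 ± 53.7). All 24 RNA processing genes found reached it, led by the pentatricopeptide repeat gene Ptcd1 (299 TPM ± 29.5) and Fastk (99.5 ± 21.6). So did 10 of 12 genes of DNA maintenance, led by the nuclease genes Mgme1 (96.4 ± 60.3) and Rnaseh1, and 8 of 11 transcription genes, led by Mrpl12, a mitochondrial ribosomal protein gene (202 ± 70.0), and Tfam, which packages mitochondrial DNA. The limit stated for strand holds for the levels of all these genes, with or without opposite-strand exons. Endog, Slirp, Ptcd1, Fastk, Mgme1 and Mrpl12 are among those with such exons.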

How the data were processed

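Total RNA libraries of 3 T-helper 1 samples in 1 group were analysed, with replicate numbers as in the labels. The authors deposited whole-number counts per gene and gene lengths, counted per the file headers by featureCounts (v1.4.6-p4) over GENCODE vM13 exons (mm10), from paired fragments with both ends aligned and with strand setting 1. The aligner version is not given in the sources used here. Names and types came from GENCODE vM21 (50376 of 50600 identifiers).

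Computed here were counts per kilobase of length, CPM (per 1000000 gene counts), RPKM and TPM. Strand and type ratios were taken within each library and tested with an exact two-sided sign-flip permutation test over the 3 libraries, which cannot go below 0.25; genes are not replicates, and the spread between libraries may in part be technical. A zero was read as allowing up to 3 counts. Nuclear copies were found with blastn 2.17.0+ against vM21 transcripts, since no genome sequence was used. Nested pairs had at least 500 bases, 90% of them inside opposite coding exons, and 30 counts. Code was tested on simulated data. Named in full were all mRNA, rRNA and minus-strand genes, the edges of the run and the 4 highest plus-strand tRNA genes. Members and lists were chosen with earlier results of these data known. Alternatives covered length, medians (with 1 count added to each gene), zeros, left-out genes and replicates, count cutoffs and edgeR and DESeq2 scaling. Software was Python 3.11.15 with SciPy 1.17.1, and DESeq2 1.42.0 and edgeR 4.0.16 in R 4.3.3.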

Additional observations from a re-analysis of the deposited data

How the results depend on the processing

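The 3 contrasts of minus over plus strand and the contrast of rRNA over mRNA kept the direction of their mean under all 30 alternatives run, although a test that cannot go below 0.25 says nothing about stability. In counts without length the mean log2 ratios were 0.28 for all types and 0.21 for mt-Nd6, and single libraries lay on either side of 0. With medians over genes, and 1 count added to each gene, the mean for all types was 5.19. Leaving out a replicate gave 3.57 to 4.37 for all types, 4.14 to 4.95 for mt-Nd6, 4.97 to 6.54 for tRNA genes and -2.29 to -2.23 for rRNA over mRNA. The minus-strand share of mitochondrial counts, 54.4% on average, was 80.7% in counts per kilobase and between 47.0% and 60.2% when single replicates were dropped. The mitochondrial share of the library was 4.47% in TPM. The SD of the log2 mitochondrial total between libraries, 0.17, was 0.282 with edgeR TMM and 0.318 with DESeq2 size factors, and between 0.117 and 0.240 without single replicates. The run of 10 genes kept its length under each cutoff and each left-out replicate, and genes at or near 0 numbered 12 to 16. No paired analysis was possible because there is 1 group. Counts of plus-strand tRNA genes were small, 25, 197 and 47 in all, so their ratios carry a wide counting error.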

Other observations

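Replicate 2 stood apart in several small mitochondrial features. It held 197 of the 269 counts on plus-strand tRNA genes, 166 of the counts on mt-Tc against 55 and 45 in replicates 1 and 3, and 243 of the counts on the nuclear copy Gm28438 against 38 and 39, although its total was the smallest of the 3. It also held 27 of the counts on Gm10222, against 1 and 0 in replicates 1 and 3. Of the 37 genes, 16 had no counts in replicate 2, against 13 in each of the other libraries. mt-Ty and mt-Ts1 were lowest in replicate 2 both in counts, with 15 and 9, and in CPM. mt-Tn had its lowest count there, 9, but its lowest CPM in replicate 1 (2.52, against 3.50 in replicate 2). These counts are small.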
